A study of Caenorhabditis elegans with 59 samples.

Results

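The genes described here are 41 genes of the egg-making germline of Caenorhabditis elegans, of 15698 genes listed in at least one of the 3 deposited tables. They were named by symbol from what is known of their roles, not by a measured value, and all 41 were listed and tested in each table (10763 genes listed for fertile worms at 8 h, 10307 at 24 h and 15364 for sterile worms). They fall into 8 role groups: 5 P granule components, 3 genes of the Notch signal to stem cells, 8 PUF proteins, 4 GLD and Nanos regulators, 3 genes of an mRNA repression complex, 10 RNA-binding proteins of the oocyte and early embryo, 2 subunits of the meiotic katanin, and 6 genes of the eggshell, the egg surface and yolk uptake. By the Ensembl annotation of WBcel235, 12 members lie on chromosome I, 9 on II, 8 on III, 8 on IV and 4 on V. None lies on the X chromosome, which holds 12.9% of the genes tested in sterile worms. Their exon length ran from 838 bases (sygl-1) to 6283 bases (gld-2), with a median of 1889 bases.

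In the adult hermaphrodite germline, stem cells at the distal end are kept dividing by Notch signalling through GLP-1, and cells that leave the niche enter meiosis and, in the adult, grow into oocytes. Transcription stops in the late oocyte, so that the egg is loaded beforehand with mRNAs for the eggshell, for yolk uptake and for the first divisions of the embryo, and these mRNAs are held silent by RNA-binding proteins until they are needed. P granules are the RNA-protein bodies of germ cells that gather many of these mRNAs and proteins.

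The study asked what loss of the heat shock transcription factor HSF-1 in the soma does in adult worms that differ in their germline. Whole worms of 4 strains were sequenced, about 120 worms per sample by the labels, with poly(A)-enriched directional libraries. CA1200 carries ieSi57, the plant F-box protein TIR1 under the eft-3 promoter, and JTL611 adds hsf-1 fused at its own locus to an auxin-inducible degron and GFP. Both had a wild-type germline, were grown for 51 h at 20 °C and then kept on auxin or on ethanol (mock) for 8 or 24 h, with 3 replicates in each group. JTL667 and JTL670 carry the same degron and TIR1 together with glp-1(e2141) or fem-3(q20), and spent 48 h at 25 °C before 8, 24 or 48 h of treatment. At 25 °C, glp-1(e2141) worms lose Notch signalling and keep few germ cells, and fem-3(q20) worms make sperm and no oocytes. They are called germline-less and sperm-only worms below. The sterile groups had 3 replicates, except germline-less worms on auxin for 48 h, of which 2 were analysed here. TIR1 was expressed in the soma, so that the depletion was aimed at somatic cells and not at the germ cells.

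Libraries of fertile worms held 13100691 to 22230585 reads at 8 h. Those at 24 h held 13398410 to 23867943 reads, and those of sterile worms 9131588 to 19964797. Markers of meiotic germ cells (10 genes, all listed in each table) summed to between 592 and 1001 CPM (reads of a gene scaled to the size of the library) in sperm-only mock libraries and between 12.1 and 21.7 CPM in germline-less ones, and 12 sperm markers to between 1503 and 2472 CPM and between 5.13 and 25.0 CPM. Germline-less mock replicate 1 at 24 h stood apart: it was the shallowest library, and the log2 differences that it moved most are also given without it. For 18 of the 59 samples, among them replicates 2 and 3 of every sperm-only group and replicate 3 of every germline-less one, the agent tag contradicts the title, and groups follow the titles. Nothing in the labels says that replicates came from separate cultures, so p-values measure the spread between these samples. In RNA of whole worms, fewer germ cells and less RNA per germ cell cannot be told apart.

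For 39 of the 41 genes the mean level in mock-treated worms was highest in fertile worms (here CA1200), lower in sperm-only worms and lowest in germline-less worms, at 8 h and again at 24 h. The median ratio of fertile to sperm-only worms was 14.5 at 8 h and 11.7 at 24 h. The 2 exceptions were gld-2, a cytoplasmic poly(A) polymerase, and glh-4, a helicase of P granules, which were higher in sperm-only worms. These ratios set levels of separately normalized tables side by side, for worms grown at different temperatures, and are given without a test. With the rank of each gene among the 9737 genes listed in all 3 tables in place of CPM, the order of fertile and sperm-only worms was the same for all 41 genes.

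**Figure D1:**
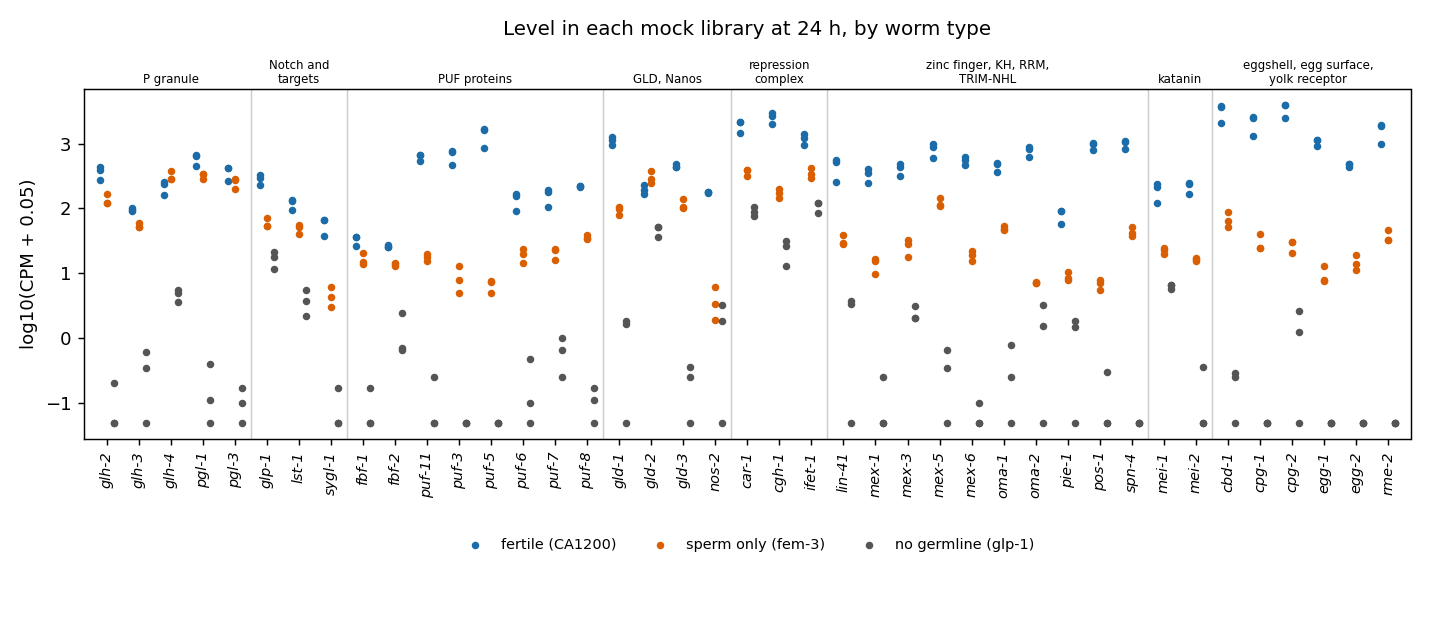
Level of each gene in each mock library at 24 h, as log10(CPM + 0.05), in fertile CA1200, sperm-only and germline-less worms (3 libraries each, 1 point per library), with the genes ordered by role. Points at the bottom are libraries without a read. The gap between fertile and sperm-only worms is wide for egg genes such as puf-5 (206-fold) and narrow for P granule genes such as pgl-3 (1.43-fold).

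The size of the step from sperm-only to fertile worms at 24 h differed between role groups. The 6 genes of the eggshell, egg surface and yolk uptake had a median ratio of 58.8, with 31.8 as the lowest (egg-2) and 125 as the highest (cpg-2). The 10 oocyte and embryo RNA-binding proteins had a median of 19.1 and ran from 6.76 for mex-5 to 137 for pos-1, a translational regulator of the early embryo. The PUF proteins, which bind mRNAs and repress them, spanned the widest range: fbf-1 and fbf-2, which maintain germline stem cells, differed by 1.97-fold and 1.89-fold, and puf-5 and puf-3, which act in oocytes, by 206-fold and 76.9-fold. The 5 P granule genes had a median ratio of 1.75, and none exceeded 2.65 (glh-2). Role groups were not tested against each other.

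The values by library give the scale of these steps. puf-5 was at 840, 1596 and 1690 CPM in the fertile mock libraries of CA1200 and at 5.003, 7.36 and 7.66 CPM in the sperm-only ones. In mock JTL611, the fertile strain that carries the degron as the sterile strains do, puf-5 was at 853, 1624 and 1714 CPM. cpg-2, a chondroitin proteoglycan of the eggshell, was at 2476, 3859 and 3903 CPM against 21.0, 30.4 and 30.7 CPM. The same 2 groups of worms were much closer for pgl-1, a scaffold of P granules, with 459, 656 and 647 CPM against 283, 334 and 345 CPM. Per kilobase of exon, the order of the genes within a worm type differed accordingly. In fertile mock worms at 24 h cpg-2 led (1981 ± 471 CPM per kilobase, SD, n = 3), followed by car-1 (1351 ± 285), cgh-1 (1123 ± 229) and cpg-1 (1122 ± 366). cpg-2 lay above car-1 by more than the SD of either, and car-1, cgh-1 and cpg-1 lay within an SD of their neighbour in this order. In sperm-only worms car-1 led (255 ± 28.1), followed by pgl-1 (129 ± 13.3), pgl-3 (112 ± 21.0) and ifet-1 (106 ± 19.4), and of these only car-1 stood clear of the next by more than the spread.

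Germline-less worms were then compared with sperm-only worms within one table, with limma on the log2 CPM values. A gene was called at a Benjamini-Hochberg adjusted p under 0.05 over 14269 genes, provided that its level averaged 2 CPM or more across the sterile libraries. In mock-treated worms 40 of the 41 genes were lower in germline-less worms at 8 h, where 36.9% of all genes were called lower, 41 at 24 h (41.9% of all genes) and 40 at 48 h (40.8%). None was called higher. The exceptions were nos-2 at 8 h (log2 difference -0.32 ± 0.67, SE, adjusted p = 0.676) and oma-2 at 48 h (-1.07 ± 0.69, adjusted p = 0.158). As 27 of the 41 genes passed the filter on low values through the sperm-only libraries alone, they had to differ, and the counts describe the strains. Of 23 other oogenic germline genes listed beside the members, 22 were tested at 24 h, of which 15 were called lower and 2 higher.

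Many members had no or hardly any reads in germline-less worms, so that the size of the difference is a bound. The floor used is 3 reads in the shallowest library of sterile worms, 0.366 CPM, and 24 of the 41 means lay at or under it at 24 h. With these set to the floor, the median fold of sperm-only over germline-less worms was 30.2 at 8 h, 38.2 at 24 h and 32.1 at 48 h. On the log2 scale these medians were 4.91, 5.26 and 5.003, and the medians of the fitted differences, which depend on the prior count, were -5.49, -6.23 and -5.38 (over all genes 0.02, -0.36 and -0.25). Over the 17 germline-less libraries of both treatments and all times, 21 genes had a median of 3 reads or fewer, yet each of the 41 had a read in at least 1 library.

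The contrast was large for the P granule genes pgl-1, pgl-3 and glh-2. pgl-1 (WBGene00003992, chromosome IV, 6974441 to 6977318, minus strand) had no read in germline-less mock libraries at 8 h and 214, 248 and 272 CPM in sperm-only ones, at least 668-fold higher. At 24 h pgl-1 was at 0, 0.356 and 0.0620 CPM in germline-less worms and at 283, 334 and 345 CPM in sperm-only worms, at least 875-fold higher. pgl-3, the partner of PGL-1 in the granule, was at 0, 0.0509 and 0.124 CPM against 201, 278 and 289 CPM at 24 h, at least 699-fold higher. glh-2, a germline helicase, was at 0, 0.153 and 0 CPM against 122, 169 and 123.3 CPM, at least 377-fold higher. The groups lay far apart for all 3 of these genes. glh-4 differed least within this group: it kept 5.50, 3.56 and 5.02 CPM in germline-less worms, against 281, 373 and 285 CPM (log2 difference -6.03 ± 0.21, adjusted p = 1.06e-20).

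Egg genes were also near 0 without a germline. rme-2, the yolk receptor of the oocyte (WBGene00004374, chromosome IV, 5470026 to 5473174, plus strand), had no read in any of the 9 germline-less mock libraries and 32.5, 46.0 and 32.8 CPM in sperm-only ones at 24 h, at least 101-fold higher. cpg-2 showed the smallest difference of its group, with 0, 1.22 and 2.60 CPM against 21.0, 30.4 and 30.7 CPM (-5.14 ± 0.64, and -3.82 without germline-less replicate 1). cpg-2 passed the filter on low values only through the sperm-only libraries, so it had to differ and its p-value is left out. Among the RNA-binding proteins of the oocyte and embryo, mex-5, which sets up the polarity of the early embryo, was lower by the most on the fitted scale, with 0, 0.305 and 0.620 CPM against 111, 144 and 110 CPM, at least 332-fold higher in sperm-only worms. oma-2, needed for oocyte maturation, differed least, with 0, 1.48 and 3.22 CPM against 7.30, 7.03 and 7.17 CPM (-3.06 ± 0.69, adjusted p = 0.000215, and -1.66 without germline-less replicate 1, adjusted p = 0.00239). Here the groups did not overlap, but both were low.

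Of the regulators of the stem cell and of the switch to meiosis, puf-8, a repressor in dividing germ cells, was at 0.122, 0 and 0.0620 CPM in germline-less worms and 34.1, 39.6 and 35.4 CPM in sperm-only worms at 24 h, at least 99.2-fold higher. fbf-2 was at 2.44, 0.661 and 0.620 CPM against 13.03, 14.2 and 14.0 CPM (-3.60 ± 0.55). fbf-2 too passed the filter only through the sperm-only libraries, and its p-value is left out. sygl-1, a Notch target of the niche, had a read only in replicate 3 and was at 4.27, 6.24 and 3.04 CPM in sperm-only worms, at least 12.3-fold higher. gld-3, a partner of the GLD-2 polymerase, was at 0, 0.203 and 0.310 CPM against 101, 139 and 104.3 CPM, at least 313-fold higher. mei-2, a subunit of the katanin that cuts microtubules of the meiotic spindle, was at 0, 0 and 0.310 CPM against 15.6, 17.5 and 16.7 CPM, at least 45.4-fold higher.

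A smaller set of members was clearly present in worms without a germline. In each of the 17 germline-less libraries 8 genes reached 1 CPM: car-1, cgh-1 and ifet-1, the 3 genes of the repression complex, and gld-2, glp-1, glh-4, mei-1 and lst-1. ifet-1, an eIF4E-binding translational repressor, was at 86.0, 122 and 124 CPM in germline-less mock worms at 24 h against 294, 421 and 342 CPM in sperm-only worms (log2 difference -1.68 ± 0.17, adjusted p = 9.01e-10). cgh-1, a DDX6-family RNA helicase, was at 13.1, 26.0 and 31.0 CPM against 143, 198 and 171 CPM (-2.94 ± 0.25, adjusted p = 2.06e-11). glp-1 itself, the Notch receptor of the germline, mutated in JTL667, was at 11.7, 21.7 and 17.7 CPM against 54.1, 72.6 and 53.9 CPM (-1.85 ± 0.20, adjusted p = 2.05e-09). mei-1, the catalytic subunit of the meiotic katanin, was at 6.47, 5.80 and 6.63 CPM against 19.8, 22.9 and 24.7 CPM (-1.81 ± 0.18, adjusted p = 2.85e-10). In these genes both groups had enough reads for the fold to be read directly, and no library of one overlapped the other.

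nos-2, a Nanos homologue of the primordial germ cells (WBGene00003784, chromosome II, 7065618 to 7067051, plus strand), differed least at 8 h. It was at 3.86, 3.30 and 3.60 CPM in germline-less mock worms at 8 h and at 4.50, 4.73 and 4.25 CPM in sperm-only worms. At 24 h the values were 0, 1.83 and 3.22 CPM against 3.34, 6.24 and 1.85 CPM, so that the groups overlapped, and the call (-1.91 ± 0.67, adjusted p = 0.0110) rests on single libraries: without replicate 1 of germline-less worms the log2 difference was -0.46 and the adjusted p 0.306, and without replicate 2 of sperm-only worms they were -1.48 and 0.0714. In fertile mock worms nos-2 was at 174, 178 and 177 CPM. Over all sterile libraries, germline-less and sperm-only values overlapped for nos-2 and oma-2. Between the mock groups of these strains 73% of all genes were called at 24 h in either direction. The share of all genes without overlap is not given here, so no count of members is read from the overlap. Low values of some genes may hold reads of a neighbour, because the strand setting of the counting is not given in the sources used here and 10 members overlap a listed gene on the other strand, among them nos-2 (him-14), mei-1 (abts-1), glp-1 (ZK507.1) and gld-2 (klu-2). Reads of near-identical pairs such as fbf-1 and fbf-2, puf-3 and puf-11, puf-6 and puf-7, and egg-1 and egg-2 could also be split or lost by the counting.

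Over time on the mock plates, most members had higher means in sperm-only worms. At 24 h the mean of the log2 values was above that at 8 h for 39 of the 41 genes, all but nos-2 and sygl-1, with a median log2 difference of 0.48 against 0.17 over all genes. With the spread estimated over both sterile strains none was called, where 7.42% of all genes were called in either direction and 7 members had an unadjusted p under 0.05. That spread includes germline-less libraries in which many of these genes have few reads. With the sperm-only libraries alone, an alternative chosen after seeing the data, 22 of the 41 genes were called higher (21.9% of all genes) and none lower, and with voom precision weights on the recovered reads 15 were called higher (16.2% of all genes). Every 24 h library lay above every 8 h library for 23 genes, and for 26% of all genes.

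Among the genes called in that fit were RNA-binding proteins of the oocyte. mex-6, a close relative of mex-5 (WBGene00003231, chromosome II, 9524174 to 9526359, plus strand), was at 7.49, 9.88 and 12.4 CPM at 8 h, at 15.3, 19.4 and 21.8 CPM at 24 h and at 20.6, 23.8 and 21.2 CPM at 48 h. The 24 h and 48 h libraries of mex-6 all lay above those at 8 h, and it was the only member called from 8 to 48 h in the fit of both strains, where 8.14% of all genes were called higher (log2 difference 1.16 ± 0.35, adjusted p = 0.0200 by limma). That call was lost without any one of 3 libraries (sperm-only mock 8 h replicate 1 or 2, or 48 h replicate 2), with adjusted p-values of 0.115, 0.05002 and 0.0707. In the fit of sperm-only libraries alone the change of mex-6 had an adjusted p of 0.000824 at 24 h and of 1.83e-05 at 48 h. spn-4, a regulator of maternal mRNAs, was at 22.6, 27.9 and 35.04 CPM at 8 h, at 38.05, 51.0 and 42.1 CPM at 24 h and at 40.1, 40.9 and 42.8 CPM at 48 h, with adjusted p-values of 0.00229 and 0.00393 in that fit. From 8 to 48 h this fit called 16 genes higher (18.5% of all genes) and voom 9 (13.5%).

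**Figure D2:**
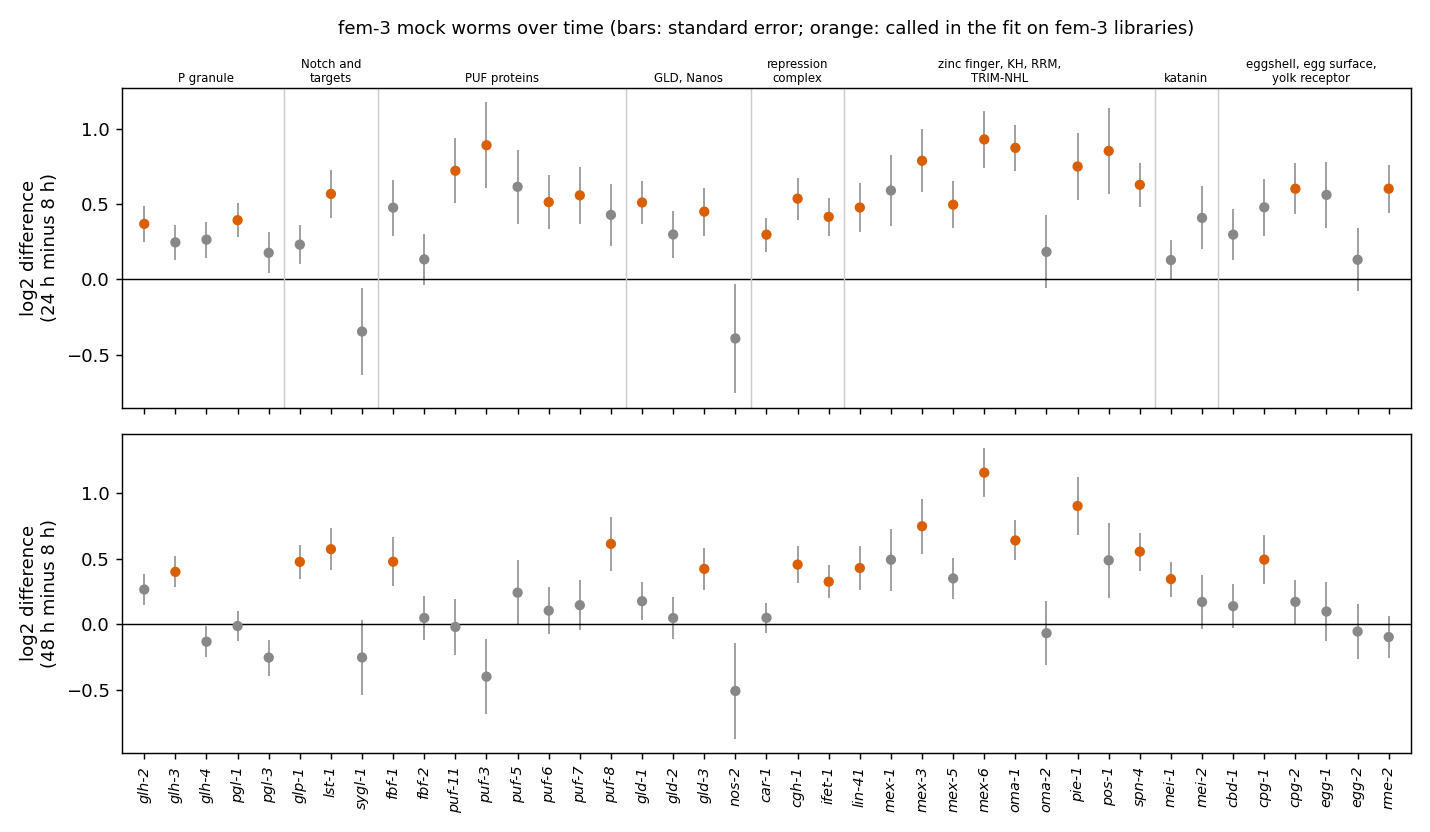
Log2 difference of each gene in sperm-only mock worms, 24 h minus 8 h (top) and 48 h minus 8 h (bottom), from the fit on sperm-only libraries alone (3 libraries per time). Bars are standard errors and orange points were called. At 24 h 39 of the 41 points lie above 0, and at 48 h 31 do.

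Other members were higher at 24 h alone. rme-2 was at 21.1, 24.1 and 27.6 CPM at 8 h, rose to 32.5, 46.0 and 32.8 CPM at 24 h (adjusted p = 0.00624 in the fit of sperm-only libraries) and was at 22.1, 20.9 and 24.8 CPM at 48 h. puf-3 went from 4.69, 3.80 and 4.25 CPM to 4.90, 12.8 and 7.99 CPM and then to 3.71, 2.88 and 3.02 CPM, the only member of which every 48 h library lay below every 8 h library. Meiotic germ cell markers moved in the same direction over this time, from a median sum of 661 CPM at 8 h to 905 CPM at 24 h and 948 CPM at 48 h, and sperm markers from 1587 to 2338 and 1906 CPM, and their part in these differences was not tested. Markers of body wall muscle and intestine moved the other way. Of 6 body wall muscle markers 4 were called lower at 24 h (median log2 difference -0.99) and 5 at 48 h (-1.45), and of 6 intestine markers 2 (-0.58) and 4 (-0.65). Other somatic markers showed no common direction. Of 6 neuron markers 1 was called higher and 1 lower at 24 h, and 2 higher and 0 lower at 48 h. Hypodermis markers had medians of 0.04 and -0.01, with 2 of the 5 tested called lower at each time. Somatic gonad markers had medians of 0.04 and 0.30, with 0 called. The part of these somatic markers was not tested either.

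In germline-less mock worms 5 members were called over time at 24 h and 3 at 48 h. At 24 h against 8 h glh-4 was called higher (5.05% of all genes), and glh-3, lin-41, mei-1 and nos-2 lower (8.21% of all genes). lin-41 was at 7.06, 5.25 and 3.49 CPM at 8 h and at 0, 3.31 and 3.72 CPM at 24 h (log2 difference -2.14 ± 0.71, adjusted p = 0.0433). Without germline-less mock 24 h replicate 1 the differences of lin-41, nos-2 and glh-3 were -0.51, -0.53 and -1.04, with adjusted p-values of 0.537, 0.563 and 0.352, and glh-4 was at 0.56 with 0.135. mei-1 fell from 12.4, 8.16 and 9.54 CPM to 6.47, 5.80 and 6.63 CPM (-0.64 ± 0.18, adjusted p = 0.0152), with no overlap of the groups. At 48 h against 8 h, mex-1 and cpg-1 were called higher (10.1% of all genes), both from no read at 8 h, to 0.372, 0.370 and 0.950 CPM for mex-1 and to 0, 0.106 and 1.013 CPM for cpg-1. The genes mex-1, cpg-1 and glh-3 passed the filter on low values and the minimum mean only through the sperm-only libraries. Their calls within germline-less worms were possible only because of the other strain. nos-2 was called lower (12.7% of all genes), from 3.86, 3.30 and 3.60 CPM to 1.24, 0.899 and 0.507 CPM (-1.95 ± 0.67, adjusted p = 0.0327). With the treatment taken from the agent tag the calls of mex-1 (log2 difference 0.87, adjusted p = 0.295) and cpg-1 (0.67, adjusted p = 0.375) were lost. The cpg-1 call was also lost without replicate 3 at 48 h (adjusted p = 0.509) and without any one of the 8 h libraries (0.0932 to 0.0949), and that of nos-2 at 48 h without any one of the 8 h libraries or replicate 2 or 3 at 48 h (0.0630 to 0.123). At 24 h the calls of lin-41 and nos-2 were also lost without any one of the 8 h libraries, that of glh-3 without 8 h replicate 1 or 3 (0.241 and 0.0949) and that of glh-4 without 8 h replicate 2 or 3 or 24 h replicate 3 (0.0874, 0.163 and 0.0509), and voom on the reads called none of the 5 genes. The change from 8 to 48 h was not called different between the strains for any member (9.59% of all genes, 4 members with an unadjusted p under 0.05).

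Between auxin and mock, which differ in auxin itself as well as in somatic HSF-1, 1 call was made in the sterile strains. All sterile samples carried the degron, so the 2 cannot be told apart in these strains. In germline-less worms 0 members were called between auxin and mock at 8 h (0.428% of all genes) and at 24 h (0.659%), with an unadjusted p under 0.05 for 4 and 3 of them. At 48 h 1 was called, higher (2.92% of all genes): spn-4, at 0.381 and 0.440 CPM on auxin and at 0, 0.159 and 0 CPM in the mock (1.71 ± 0.38, adjusted p = 0.00656 by limma). These are a handful of reads, the groups do not overlap, and voom on the reads gave spn-4 an adjusted p of 0.0768. The gene passed the filter and the minimum mean only through the sperm-only libraries, without which it could not be called. With the agent tag the log2 difference of spn-4 was -0.11 (adjusted p = 1). Leaving out auxin replicate 1 gave 0.0566 and leaving out auxin replicate 3 gave 0.0691. In sperm-only worms 0 members were called at 8 h (0.224% of all genes), 24 h (0.273%) or 48 h (2.23%), with 0, 0 and 1 member at an unadjusted p under 0.05. The auxin effect was called different between the strains for no member at 8 h (0% of all genes), 24 h (0.035%) or 48 h (0.399%), with 1, 0 and 4 members at an unadjusted p under 0.05.

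In sperm-only worms at 48 h some egg genes were called in the fit of their own strain alone. cpg-1, the partner of CPG-2 in the eggshell, was at 66.9, 40.8 and 46.2 CPM on auxin and at 34.2, 29.4 and 25.0 CPM in the mock, and every auxin library lay above every mock library. The log2 difference of cpg-1 was 0.77 ± 0.50 with an adjusted p of 0.679 in the fit of both strains and 0.77 ± 0.19 with an adjusted p of 0.00924 in the fit of sperm-only libraries. In the fit of sperm-only libraries 3 genes were called higher (4.15% of all genes), cpg-1, cpg-2 and puf-3, and voom called cpg-1 alone (3.2%). cpg-2 was at 33.0, 33.1 and 26.6 CPM on auxin and at 18.9, 19.3 and 21.9 CPM in the mock (0.62 ± 0.17 in that fit, adjusted p = 0.0201). puf-3 was at 6.88, 9.05 and 4.92 CPM on auxin and 3.71, 2.88 and 3.02 CPM in the mock (1.05 ± 0.28, adjusted p = 0.0185). Groups did not overlap for 15 members: 9 were higher on auxin (17.1% of all genes) and 6 lower (12.6%), the latter being pgl-1, pgl-3, fbf-2, gld-2, gld-3 and car-1. With the treatment taken from the agent tag, which exchanges replicates 2 and 3 between the groups, 0 members were called in this comparison. The directions of cpg-1, cpg-2 and puf-3 then turned, with log2 differences of -0.13, -0.08 and -0.47 in an alternative added after seeing the data, and the groups overlapped for each of them.

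In fertile worms no member was called in any of the 8 comparisons. JTL611 on auxin was set against CA1200 on auxin and against JTL611 mock, and CA1200 on auxin against mock and the 2 mock strains against each other served as controls. Of all genes, 0.00931% were called for auxin in CA1200 at 8 h, 0.00976% for the same at 24 h, and 0% in the other 6 comparisons. At 8 h 39 of the 41 means were lower in JTL611 on auxin than in CA1200 on auxin, with a median log2 difference of -0.15 (all genes 0.00) and a median SE of 0.12, and none had an unadjusted p under 0.05. At 24 h 36 of 41 were lower, with a median of -0.18 (all genes 0.01), a median SE of 0.30, and 1 gene at an unadjusted p under 0.05. Against JTL611 mock, the other control, the medians were -0.09 at 8 h and -0.07 at 24 h. In CA1200 auxin itself gave medians of 0.15 and 0.06. At 8 h the replicate numbers pair the libraries of JTL611 and CA1200 on auxin. With replicate as a block the median SE was 0.10, 6 members had an unadjusted p under 0.05 and none was called, the smallest adjusted p being 0.700. The same block gave 13 such members for auxin in CA1200, a control. It gave 0 for JTL611 on auxin against its mock and 0 between the mock strains. Replicate numbers did not pair the libraries in any of these. At 24 h replicate numbers pair the libraries of all groups, and with replicate as a block the median SE at 24 h fell to 0.11. Against CA1200 on auxin 16 members had an unadjusted p under 0.05, and again none was called, the smallest adjusted p being 0.211. Against JTL611 mock 5 members had an unadjusted p under 0.05, and in the 2 controls 0 and 0. Shares of all genes under the block are not given here, so these counts are not read as a result about the members.

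The single gene behind the unadjusted count at 24 h was nos-2, named here after its values were seen. On auxin, JTL611 had 95.1, 137 and 174 CPM and CA1200 had 177, 179 and 191 CPM, with no overlap (log2 difference -0.47 ± 0.18, unadjusted p = 0.0207, adjusted p = 0.99999 by limma). Against JTL611 mock, at 167, 185 and 193 CPM, the difference was -0.47 ± 0.18 (adjusted p = 0.998), and the groups overlapped in 1 library. Without JTL611 auxin replicate 1 these differences were -0.24 and -0.24, in an alternative added after seeing the data and given without a test. With replicate as a block nos-2 had the smallest p of the members in both comparisons. Its adjusted p-values by limma were then 0.211 against CA1200 on auxin and 0.203 against JTL611 mock. At 8 h nos-2 was at 135, 121 and 126 CPM in JTL611 on auxin and at 131, 129 and 129 CPM in CA1200 on auxin.

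In fertile worms the members differed between libraries of one group. At 24 h replicate 1 was the lowest of the 3 libraries for 41 of 41 members in CA1200 on auxin, for 38 in CA1200 mock, for 39 in JTL611 on auxin and for 41 in JTL611 mock. Over all genes replicate 1 was the lowest for between 40.2% and 43.4%. The ratio of replicate 1 to the mean of the others had a median over the members of 0.645, 0.697, 0.585 and 0.613 in these groups, against 0.998 to 1.03 over all genes. This was not particular to the members. The 23 other oogenic germline genes summed to 4690 to 5770 CPM in replicate 1 at 24 h and to 7112 to 9038 CPM in the other libraries. At 8 h the low libraries were CA1200 mock replicate 1 (median ratio 0.777) and JTL611 auxin replicate 1 (0.832), and replicate 1 of the other 2 groups was close to its partners (0.977 and 0.957). Without replicate 1 in any group, an alternative chosen after seeing the data, the median log2 difference of JTL611 against CA1200 on auxin was -0.08 at 8 h and -0.12 at 24 h, with 36 and 39 of 41 members lower and none called by limma.

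**Figure D3:**
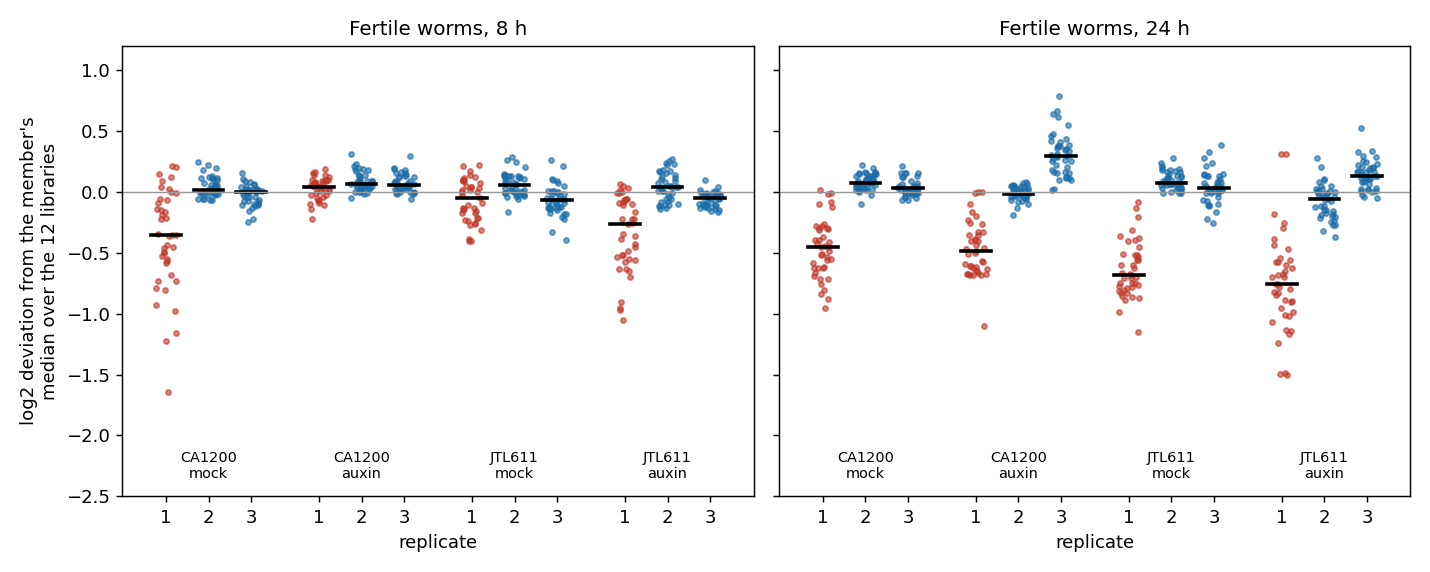
Deviation of each gene in each fertile library from its median over the 12 libraries of that time, on the log2 scale, at 8 h (left) and 24 h (right). Each point is 1 of the 41 genes, bars are medians over the genes, and replicate 1 is red. At 24 h the medians of replicate 1 lie between -0.76 and -0.45 in all 4 groups, and at 8 h 2 of the 4 lie at -0.36 and -0.27.

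The members differed widely in how far they followed these libraries. At 8 h the highest of the 12 libraries exceeded the lowest by a median of 1.44-fold over the members (1.72-fold over all genes), from 1.17-fold for pos-1 to 3.77-fold for lin-41. At 24 h the median was 2.18-fold (all genes 1.91-fold), from 1.36-fold for puf-8 to 4.405-fold for cbd-1, and 27 members exceeded 2-fold. lin-41, a TRIM-NHL regulator of oocyte growth (WBGene00003026, chromosome I, 9334800 to 9342496, minus strand), was at 145, 535 and 429 CPM in CA1200 mock at 8 h and at 230, 546 and 445 CPM in JTL611 on auxin. In CA1200 on auxin, where replicate 1 did not stand apart, lin-41 was at 458, 523 and 517 CPM. gld-1, the repressor that holds oocyte mRNAs silent in early meiosis, followed the same libraries, with 516, 1305 and 1122 CPM in CA1200 mock and 865, 1410 and 1121 CPM in JTL611 on auxin. egg-1, a receptor-like protein of the egg surface, did not, with 938, 837 and 875 CPM and 810, 780 and 820 CPM in the same libraries.

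At 24 h puf-5, which had been even at 8 h, joined the low libraries. It varied 1.203-fold over the 12 libraries at 8 h and 3.02-fold at 24 h, when it was at 840, 1596 and 1690 CPM in CA1200 mock and at 655, 1360 and 1731 CPM in JTL611 on auxin. cbd-1, a chitin-binding protein of the eggshell (WBGene00010351, chromosome IV, 11372991 to 11377627, plus strand), was low in the low libraries at both times. At 8 h cbd-1 was at 1965, 3445 and 2991 CPM in CA1200 mock and at 1522, 3296 and 2904 CPM in JTL611 on auxin, and at 24 h at 2088, 3804 and 3604 CPM and at 1175, 2873 and 4171 CPM. At 24 h puf-8 stayed within 203 to 276 CPM in all 12 libraries, with its highest value in replicate 1 of JTL611 on auxin.

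**Figure D4:**
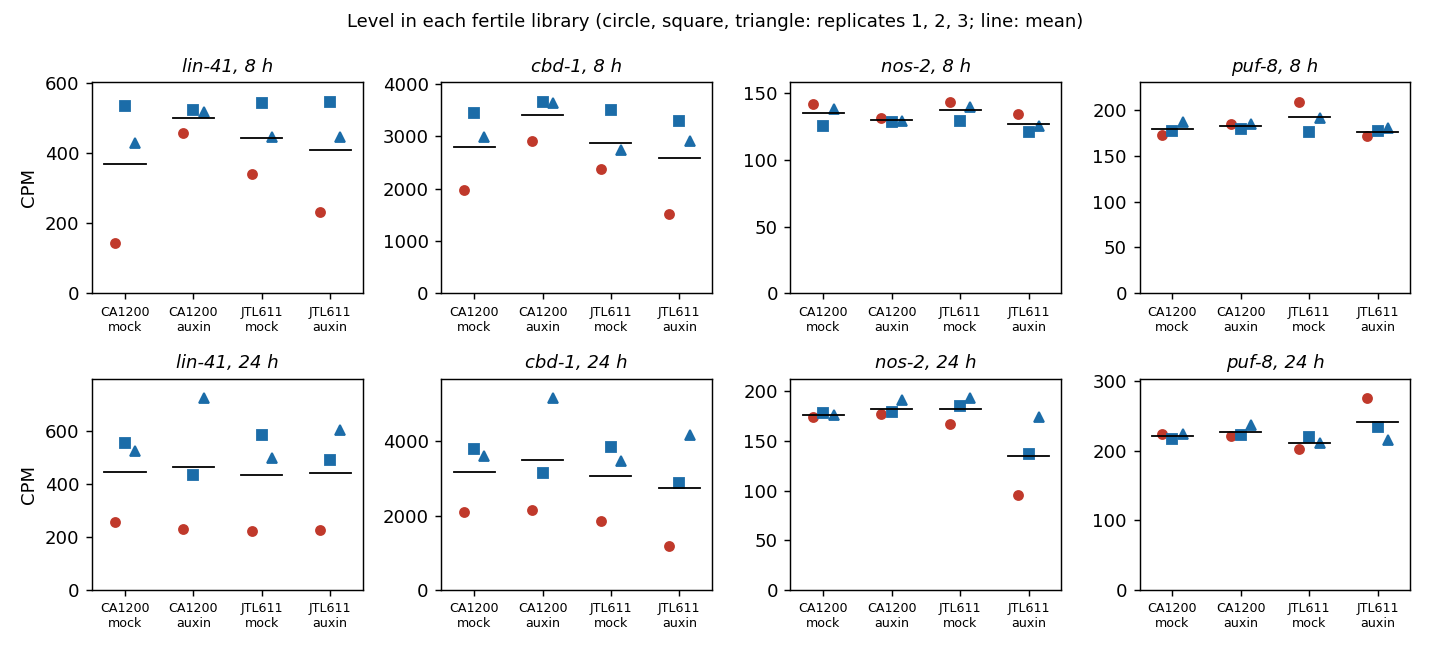
Level of lin-41, cbd-1, nos-2 and puf-8 in each of the 12 fertile libraries at 8 h (top) and 24 h (bottom), in CPM, with replicate 1 in red and the mean of each group as a line. Replicate 1 is low for lin-41 and cbd-1 in every group at 24 h. For nos-2 it is the lowest library of every group at 24 h, by most in JTL611 on auxin (95.1 against 137 and 174 CPM). puf-8 stays between 172 and 209 CPM at 8 h and between 203 and 276 CPM at 24 h.

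Of other measures, some moved with the low libraries and some did not. Summed markers of meiotic germ cells stayed between 789 and 834 CPM over the 12 libraries at 8 h and between 851 and 944 CPM at 24 h. Those of sperm, of which 5 were listed at 24 h, were at 63.5 to 86.5 CPM in replicate 1 and at 101 to 142 CPM in the others at 24 h, and body wall muscle markers at 401 to 651 CPM and 255 to 437 CPM. At 8 h muscle markers were at 401 to 519 CPM in replicate 1 of every group and at 615 to 1315 CPM otherwise. At 8 h the deviation of a library from the median fell with exon length in the 2 low libraries, with a Spearman rho of -0.55 in CA1200 mock replicate 1 and -0.61 in JTL611 auxin replicate 1 over the 41 members, and of -0.67 and -0.66 over 10734 genes, which share the library. In CA1200 mock replicate 3, which was not low (median deviation 0.003), rho was -0.66 over the members and -0.37 over all genes. In the remaining 8 h libraries rho over the members ran from -0.38 to 0.68. At 24 h rho in replicate 1 was between -0.35 and 0.30 over the members and between -0.54 and -0.32 over all genes. These correlations are across genes, which are not replicates, and their part in the low values was not tested.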

How the data were processed

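The members and gene lists were chosen with earlier results of these data known. The authors deposited 3 tables of log2 CPM values, made per the paper's methods and the submitters' processing notes with STAR, featureCounts and edgeR on WBcel235 (ce11). Versions are not given in the sources used here. The deposited values hold a prior of 2 reads. CPM in the text have log and prior undone, and 100% of the low values checked came out as whole reads (within 0.05). A mark of the authors' own differential expression calls (1 column of no sample) was not used.

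The filter asked for 1 CPM or more in 25% of a table's libraries, which left 10739 genes in fertile worms at 8 h, 10245 at 24 h and 14269 in sterile worms. All groups of a table entered one fit of limma 3.58.1 (R 4.3.3, lmFit and eBayes with trend), two-sided, with Benjamini-Hochberg adjustment over all genes tested. Calls needed an adjusted p under 0.05 and an average level of 2 CPM or more. The paper's tests are on counts. The tables are not counts, so limma was used, and genes called for auxin in CA1200 were not removed. Folds are of mean CPM and log2 differences of the deposited log2 values. The script was tested on simulated data with known changes.

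Precision is limited by depth. The floor, 3 reads, was 0.134 to 0.228 CPM in fertile libraries at 8 h, 0.133 to 0.214 CPM at 24 h and 0.153 to 0.366 CPM in sterile ones. Floors cover counting error only, as PCR reads without molecular identifiers are not independent molecules. Tables were normalized separately, so no test crosses them.

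Members named with all values were, in each role group, those with the largest and the smallest difference between germline-less and sperm-only mock worms at 24 h and, in each comparison, up to 3 called members in each direction. Others were named for ranges or small counts, after their values were seen. Pairing by replicate number was checked by the correlation of same-numbered libraries after removal of group means (over 0.1 in every pair). It held in fertile worms in all 4 comparisons at 24 h (0.207 to 0.806) and for JTL611 against CA1200 on auxin at 8 h (0.108 to 0.446), and in sperm-only worms between auxin and mock at 24 h (0.124 to 0.231). The alternatives were pseudocounts of 0.5 and 0.1, no filter, no minimum mean, only the groups compared, a replicate block, centring on the median, voom, the agent tag, agreeing labels, each library left out and, added after seeing the data, the strain's own libraries and no replicate 1. Figures were drawn with matplotlib 3.10.9 in Python 3.11.15. Coordinates are those of the Ensembl annotation of WBcel235.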

Additional observations from a re-analysis of the deposited data

How the results depend on the processing

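In the comparison of germline-less with sperm-only mock worms, where 27 members passed the filter through one strain alone, with one library left out 40 members were called at 8 h in each case, 40 to 41 at 24 h and 39 to 40 at 48 h, and no alternative moved a count by over 1.5 times. At 24 h single calls of low genes were lost where the spread came from the compared groups alone (nos-2, adjusted p = 0.222, and oma-2, 0.0564). Calls of nos-2, oma-2 and fbf-2 were also lost with agreeing labels, where the sperm-only group kept a single library. Their log2 differences there were -2.81, -4.06 and -3.21. The order of levels by worm type held for 39 members by rank percentile and with any one mock library at 24 h left out. In fertile worms no alternative called a member in any of the 8 comparisons. Centring moved the median log2 difference of all genes between the sterile strains at 48 h from -0.25 to 0.15, with medians of 0.02 and 0.21 at 8 h and of -0.36 and 0.00 at 24 h, and with no member higher under either scaling.

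Changes over time depended on the fit. The counts below stand without the share of all genes called under each setting, and are not read as results about the members. For sperm-only mock worms, 24 h against 8 h, 0 members were called, and 4 with log2(CPM + 0.5), 18 with only the groups compared, 15 with voom and 22 with only the strain's libraries, and 0 with any one library left out. At 48 h against 8 h, 1 was called, and 2, 15, 9 and 16 under the same settings, 0 with the agent tag, and 0 to 1 with a library left out. In germline-less mock worms at 24 h 5 were called, and 3 with the replicate block, with centring or with the agent tag, and 0 with only the groups compared, voom, agreeing labels or only the strain's libraries, and 1 to 5 with a library left out. At 48 h 3 were called, 7 with centring, 1 with agreeing labels or only the strain's libraries, and 1 to 7 with a library left out (7 without mock 48 h replicate 1). The difference between strains in that change called 0 members, and 1 with log2(CPM + 0.5), only the groups compared, the replicate block, voom, the agent tag or agreeing labels, and 0 to 1 with a library left out.

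For auxin in germline-less worms at 48 h 1 was called, and 0 with only the groups compared, voom, the agent tag, agreeing labels or only the strain's libraries, and 0 to 1 with a library left out. The log2 difference of spn-4 turned to -0.11 with the agent tag. At 8 h leaving out a library gave 0 to 1. In sperm-only worms at 48 h 0 were called, and 8 with only the groups compared, 1 with voom and 3 with only the strain's libraries. At 8 h 1 was called with agreeing labels. The difference of auxin effect at 48 h called 0 to 1 with a library left out. The shared fit includes germline-less libraries with few reads of these genes, and fits on fewer groups leave them out by construction. What else moved these counts was not tested. Shares of all genes under these settings are not given beside them, so the counts describe the settings.

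Of the counts under alternatives, 219 stayed within 1.5 times and 34 did not, and with a library left out 167 and 14. For single named members, 296 kept direction and side of the threshold, 42 lost the call and 1 reversed, and with a library left out 166 and 31. Replicate numbers did not pair the sterile libraries over time. In the paired comparisons the replicate block called 0 members, as without it. Depth limits the germline-less values most, where a mean under 0.366 CPM cannot be told from 0 in the shallowest library.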
